A study of Mus musculus with 10 samples.

Results

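The genes described here encode the nuclear parts of respiratory complex I, measured in livers of mice given napabucasin or its vehicle for 7 days. They were taken by name from the gene count table: every protein-coding gene whose symbol begins with Nduf. This gave 46 genes of the 54532 in the table, 38 subunits and 8 assembly factors whose symbols begin with Ndufaf. A further 5 Nduf rows were left out because their biotype was not protein coding, 4 of them processed pseudogenes. Napabucasin, coded BBI608 in the labels, is a quinone compound known for blocking transcription that depends on STAT3. It was gavaged at 20 mg per kg body weight each day for 7 days in 5 libraries labelled as biological replicates. The 5 vehicle libraries came from mice gavaged with 1% NaCMC (sodium carboxymethyl cellulose) over the same 7 days. Both groups were whole liver on free access to food and water, and the labels give no genotype, strain, sex or age. The reads are from polyadenylated RNA, and library totals ran from 14124484 to 17759967 counts.

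Complex I is the entry point of the respiratory chain: it takes electrons from NADH, passes them along a row of iron–sulfur clusters to ubiquinone, and pumps protons across the inner mitochondrial membrane. Its N module binds NADH, its Q module reduces ubiquinone, and the proximal and distal parts of its membrane arm hold the proton channels, whose core subunits are encoded by mitochondrial DNA. Hepatocytes are rich in mitochondria and run fatty acid oxidation, ketogenesis and the urea cycle against this chain. Assembly factors join the modules in steps and are absent from the finished enzyme.

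The start regions of these genes are shown first, because 8 of them carry the same 8 letters within 50 bases after the RefSeq start, where the search ended. Windows of 250 bases before to 50 bases after the transcription start, from RefSeq on GRCm38.p6, matched 40 of the 46 genes by symbol. The letters AAGATGGC, the core of the element read by the factor YY1, occurred on either strand in 8 of the 40 windows (20.0%), against 3.19% of 27025 gene symbols with a window. This spelling was chosen after several had been looked at, and no share was taken for protein-coding symbols alone. In all 8 genes the match lay on the gene's own strand and after the start, as it did in 280 of the 862 symbols with a match. Such a match was thus in 20.0% of the 40 windows, against 1.04% of all symbols. This limit to strand and side was taken from the 8 matches themselves, so their share could not fall under it. The wider contrast is therefore no added evidence. In the lines below, written 5′ to 3′ on the gene's strand, capitals mark these letters.

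Ndufc1, chr3:51408915-51408944: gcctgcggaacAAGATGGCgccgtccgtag

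Ndufa9, chr6:126849097-126849126: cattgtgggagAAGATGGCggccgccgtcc

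Ndufa3, chr7:3617384-3617413: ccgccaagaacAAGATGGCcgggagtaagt

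Ndufs7, chr10:80249462-80249491: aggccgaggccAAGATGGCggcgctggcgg

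Ndufaf8, chr11:120098933-120098962: aggcagggcccAAGATGGCggcgccctcga

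Ndufs6, chr13:73328433-73328460: gggtcaccggcAAGATGGCggcggtgct

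Ndufs4, chr13:114388045-114388070: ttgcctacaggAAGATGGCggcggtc

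Ndufb8, chr19:44555393-44555415: cggagaaggtgAAGATGGCtgcc

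Ndufa3, Ndufs7 and Ndufaf8 are read from the plus strand and the other five from the minus strand. The count table can place a gene's start elsewhere than RefSeq: there Ndufs7 begins at chr10:80249121. The ATG inside the capitals was the annotated start codon in 7 of the 8 genes, by GENCODE vM21, with Ndufaf8 as the exception. A second sequence type is shown by Ndufb4, a distal membrane arm subunit. Its 250 bases upstream of the RefSeq start held 3 copies of a site type of nuclear respiratory factor NRF1. The site was searched as the letters GCGCA, then any base, then GCGC, and is here in capitals. In the count table this minus-strand gene begins at chr16:37654453, so the last part of the printed stretch lies inside that gene model.

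Ndufb4, chr16:37654369-37654618, minus strand: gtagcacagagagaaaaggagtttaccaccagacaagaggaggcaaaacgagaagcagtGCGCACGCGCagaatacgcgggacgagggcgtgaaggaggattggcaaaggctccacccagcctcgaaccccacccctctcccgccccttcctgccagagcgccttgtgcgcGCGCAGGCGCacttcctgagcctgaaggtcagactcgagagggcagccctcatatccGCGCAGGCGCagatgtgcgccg

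This NRF1-type site was present, on either strand, in the windows of 9 of the 40 genes (22.5%), against 5.19% of all symbols. The ETS-type letters CCGGAAG, which GABPA can bind, were in 6 windows (15%) against 9.93% of symbols, and the ERR-type letters AAGGTCA were in 3 (7.5%) against 5.38%. These are letter matches in short windows, and no binding was measured. The matches are referred to below only where the gene carrying one is described.

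Levels are first compared between genes on the FPKM scale, which here divides counts by gene length and by a median-of-ratios size factor of the library. The 36 subunits that belong to the finished complex had a median mean level of 44.9 FPKM over the 10 libraries, with quartiles at 24.6 and 67.2 FPKM, which lie 2.74-fold apart. The lowest was Ndufb2 at 1.41 FPKM, and the highest was Ndufa8 at 139 FPKM. Ndufb2 is counted over a gene model of 5628 bases, long for so small a subunit. The 8 Ndufaf genes were less abundant, with levels from 2.84 to 27.1 FPKM and a median of 6.68 FPKM. The plot of FPKM levels shows that most assembly factors sat beneath most subunits in both groups.

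**Figure D1:**
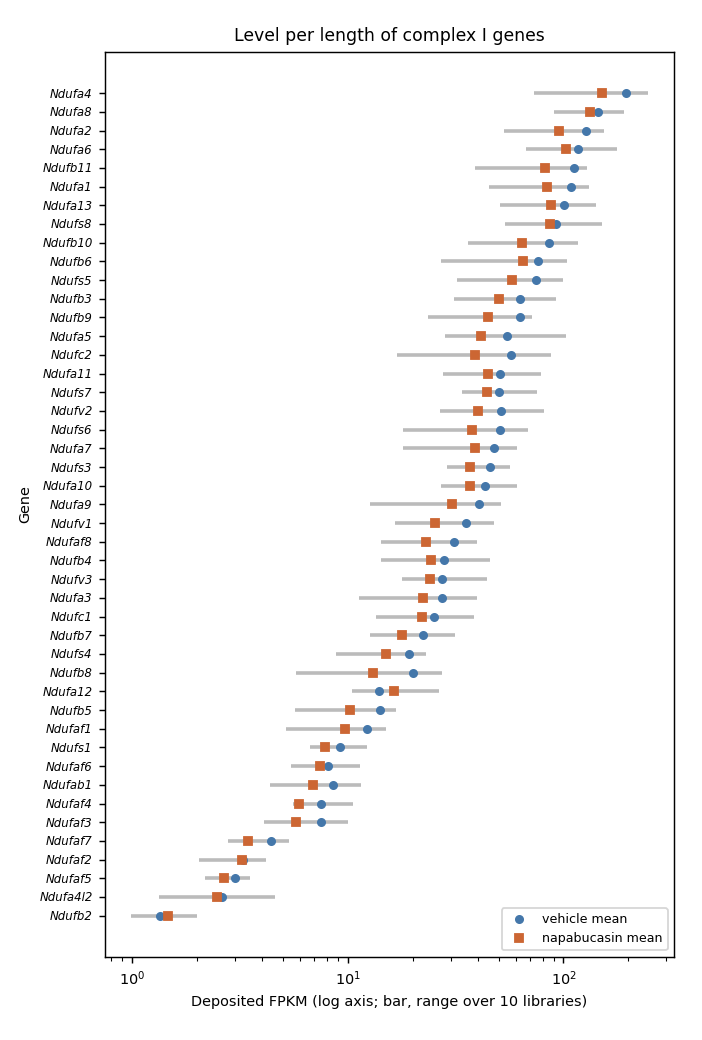
Mean FPKM of the complex I genes described on a log axis, with circles for the vehicle mean, squares for the napabucasin mean and a grey bar from the lowest to the highest of the 10 libraries. Ndufa4 is the most abundant at 173 FPKM, and Ndufb2 is the least abundant subunit at 1.41 FPKM.

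Between the groups, most nuclear complex I genes had slightly lower mean levels in napabucasin livers, but no gene passed the test. Of the 38 subunits, 36 had a log2 fold change (napabucasin minus vehicle) below 0, against 49.9% of the 14244 genes tested, and their median was -0.31, with a range of -0.61 to 0.24. The median over all genes tested was 0.00. By edgeR's quasi-likelihood test with Benjamini-Hochberg adjustment, 0 of 38 subunits passed an adjusted p of 0.05. The share of all genes that passed was 0.0%, and the smallest adjusted p among subunits was 0.315. At an unadjusted p under 0.05, 3 subunits were lower, Ndufb9 and Ndufb8 among them, against 5.83% of all genes, and 0 were higher, against 9.34%. In 0 of the 38 subunits were the groups free of overlap, against 0.934% of all genes with every napabucasin library below every vehicle library and 1.21% with every one above. No subunit passed under any of the 21 other settings tried, DESeq2 and limma-voom with quality weights included. By limma-voom 26 of 38 subunits were lower, against 49.6% of all genes. With the replicate number as a block, 6 subunits were lower at an unadjusted p under 0.05, against 8.81% of all genes.

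**Figure D2:**
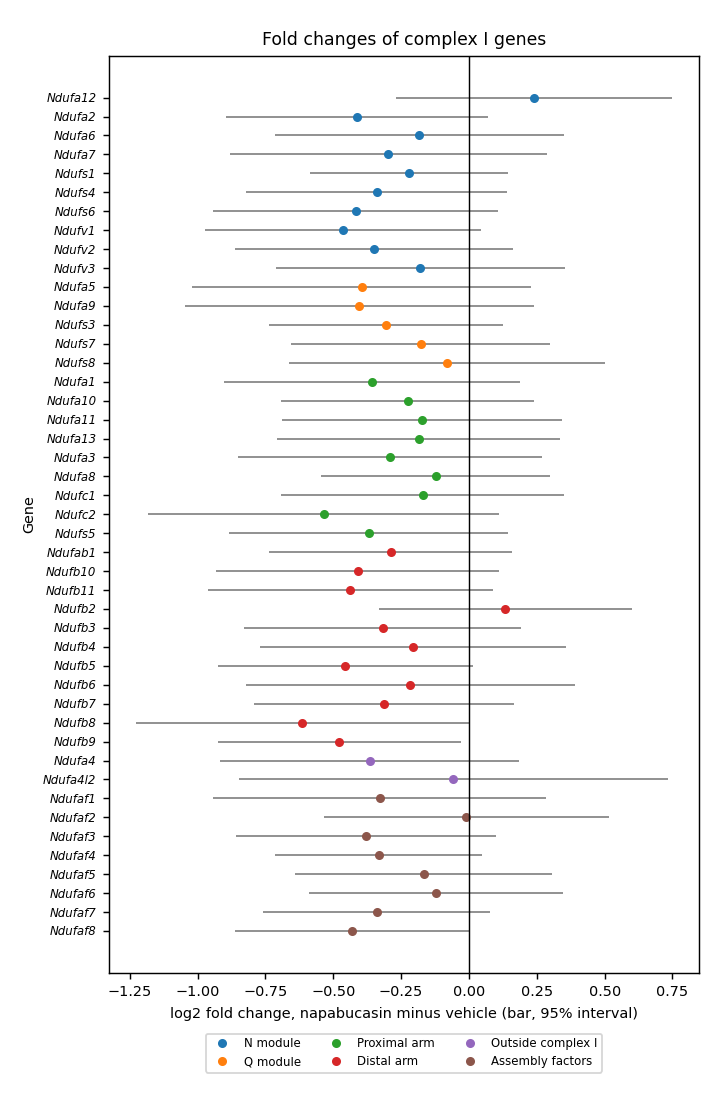
Log2 fold change of each gene described, napabucasin minus vehicle, with its 95% interval, coloured by module. Most points lie left of 0, from -0.61 for Ndufb8 to 0.24 for Ndufa12, while nearly all intervals cross 0.

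The difference was spread over the modules of the enzyme. In the N module 9 of 10 subunits were lower, with a median log2 fold change of -0.32. The Q module had 6 of 6 lower (median -0.35), the proximal membrane arm 9 of 9 (median -0.23) and the distal membrane arm 10 of 11 (median -0.32). The 7 core subunits, which carry the cofactors and are shared with bacteria, had a median of -0.30, and the 29 accessory subunits a median of -0.31. Differences between modules were not tested.

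On the summed level, the spread (SD) between libraries of one group exceeded the difference between the group means. On the share of counts it did so in napabucasin livers only. The summed level of the 38 subunits was 4022, 2286, 3384, 2691 and 3095 CPM (CPM is the usual depth-scaled count, here over TMM library sizes) in vehicle replicates 1 to 5, a mean of 3096 ± 664 (SD, n = 5). In napabucasin replicates 1 to 5 it was 1575, 2174, 2823, 2743 and 3211 CPM, a mean of 2505 ± 638 (SD, n = 5). The TMM factor was 0.829 in vehicle replicate 1 and 1.23 in vehicle replicate 2. As a share of all counts, without TMM scaling, the subunits took 0.333%, 0.280%, 0.302%, 0.278% and 0.286% in vehicle replicates 1 to 5. In napabucasin replicates 1 to 5 the share was 0.153%, 0.239%, 0.294%, 0.296% and 0.305%. Mean shares were 0.296 ± 0.0228% and 0.257 ± 0.0640% (SD, n = 5 each). On both measures vehicle replicate 1 was the highest of the 10 libraries and napabucasin replicate 1 the lowest, and napabucasin replicates 3, 4 and 5 lay inside the vehicle range. By gene, napabucasin replicate 1 held the lowest value of the 10 libraries for 33 of the 38 subunits, against 22.6% of all genes. Vehicle replicate 1 held the highest value for 28 of the 38, against 12.9% of all genes. The libraries were also read in pairs by their shared replicate numbers, although the labels name no pairing. In this reading 7 of the 38 subunits were lower in the napabucasin library of all 5 pairs, against 9.72% of all genes. Ndufv1, Ndufb5, Ndufb8 and Ndufb9 were among them. For 17 subunits 2 napabucasin libraries lay below the lowest vehicle library, for 12 subunits 1 did, for 4 subunits 3 did, and for 5 subunits none did. These counts were not taken over all genes, so nothing is read from them about the subunits as a group.

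**Figure D3:**
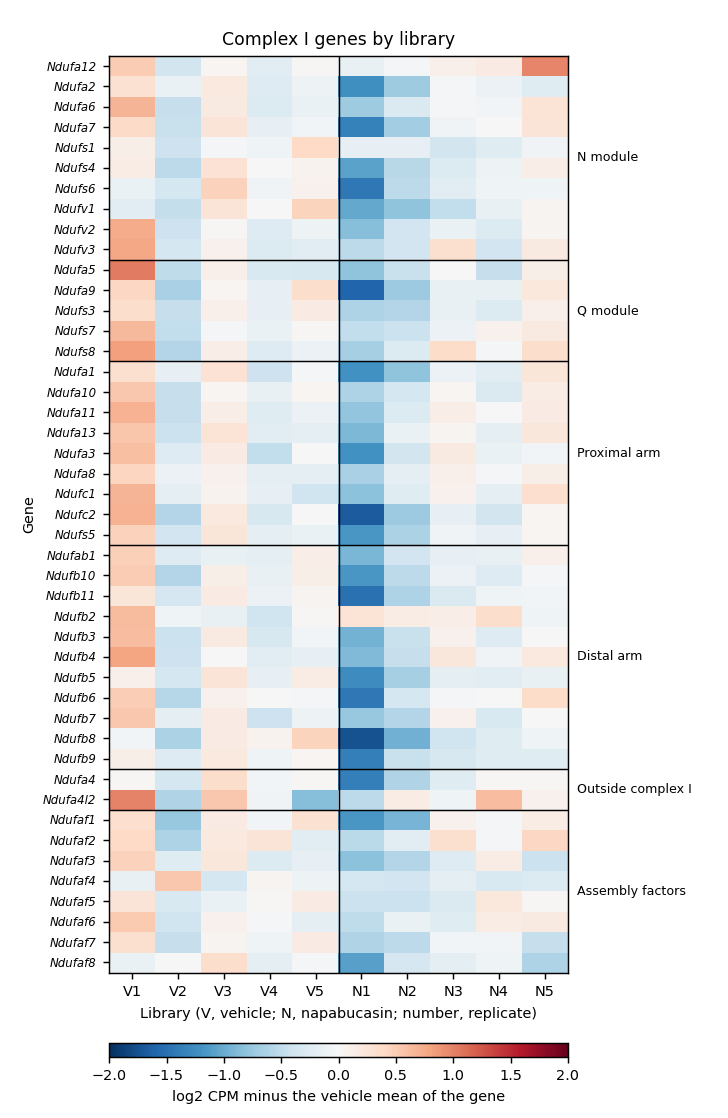
Log2 CPM of each gene described, in each library, minus that gene's vehicle mean, with genes grouped by module and libraries by group (V, vehicle; N, napabucasin). The column of napabucasin replicate 1 is blue for nearly all genes and darkest for Ndufb8, where it measured 18.6 CPM, and the columns of napabucasin replicates 3 to 5 are close to the vehicle columns.

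Napabucasin replicates 1 and 2 also stood apart in measures that are not about complex I. Genes annotated as rRNA took 1.09% of counts in each of these libraries, and 0.426% to 0.455% in the other three napabucasin libraries. The vehicle libraries held 0.347%, 0.912%, 0.333%, 0.431% and 0.195%, so vehicle replicate 2, the lowest vehicle library for summed subunit CPM, was also the vehicle library with the highest rRNA share. Short genes were lower in napabucasin replicate 1: the median deviation from the vehicle mean was -0.39 (log2) over 884 genes shorter than 1000 bases, and 0.18 over 7282 genes of 4000 bases or more. Vehicle replicate 1 lay the other way, with 0.26 over the short and -0.03 over the long genes. Napabucasin replicate 2 had -0.15 and 0.11, and vehicle replicate 5 had -0.13 and 0.02. Complex I subunits are short, with a median length of 1532 bases against 4097 for all genes tested. Their deviation in napabucasin replicate 1 was -1.21 in the 10 subunits shorter than 1000 bases and -0.76 in the 5 of at least 4000 bases. The part of rRNA share and gene length in the group difference was not tested.

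Leaving libraries out moved the subunit values. Without napabucasin replicate 1 the median log2 fold change of the subunits was -0.20, and without vehicle replicate 1 it was -0.17. Without napabucasin replicates 1 and 2 together it was -0.09, with 25 of 38 subunits lower against 53.6% of all genes. In that fit 0 subunits were lower at an unadjusted p under 0.05 against 2.32%. Napabucasin replicates 1 and 2 had the lowest summed subunit levels of all libraries, so leaving them out was bound to move the median towards 0. No vehicle libraries were left out together, so nothing is concluded from this omission. The count of 3 subunits at an unadjusted p under 0.05 became 0 without vehicle replicate 3, 4 or 5, where 3.59%, 3.99% and 3.15% of all genes were lower at that p, and 0 without napabucasin replicate 2 (3.17%). It became 1 without vehicle replicate 1 (8.25%) or napabucasin replicate 1 (4.0%). It became 6 without vehicle replicate 2 (6.6%), 5 without napabucasin replicate 4 (8.0%) and 7 without napabucasin replicate 5 (6.25%), so the share over all genes moved as well.

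Markers of the liver's cell types were read from the same fit. Of 10 hepatocyte markers 9 were matched, and their summed level was 45845 to 162092 CPM in vehicle livers and 74720 to 133116 CPM in napabucasin livers, so the defining cells of the labelled tissue were present. All 9 hepatocyte markers had log2 fold changes below 0. All 5 markers each of sinusoidal endothelium, Kupffer cells, stellate cells and lymphocytes were above 0. The endothelial markers summed to 43.6 to 133 CPM in vehicle and 110.3 to 183 CPM in napabucasin livers, and the Kupffer markers to 198 to 1133 and 403 to 1580 CPM. The stellate markers summed to 230.2 to 302 and 240.4 to 709 CPM, and the lymphocyte markers to 24.9 to 74.8 and 43.9 to 138 CPM. Of 5 cholangiocyte markers 2 were higher and 3 lower, with sums of 214 to 478 and 266 to 446 CPM. Muscle markers summed to at most 40.4 CPM and pancreas markers to at most 13.2 CPM, adipocyte markers were near 0, and Lep, Ins2 and Amy2a5 were at 0 in all libraries. In whole tissue, fewer hepatocytes and less of these transcripts in each hepatocyte cannot be told apart, and the part of cell make-up in the subunit values was not tested.

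The catalytic core was followed from NADH to ubiquinone. Gene positions are those of the count table, on GRCm38, and span the gene from its first to its last base, introns included. Ndufv1 (chr19:4007497-4012806, the subunit that holds FMN and oxidises NADH) measured 75.5, 62.6, 105, 86.4 and 118 CPM in vehicle replicates 1 to 5. It measured 43.0, 50.1, 61.7, 79.1 and 90.5 CPM in napabucasin replicates 1 to 5. Napabucasin replicates 1 to 3 were below the lowest vehicle library, and replicates 4 and 5 overlapped. Its log2 fold change was -0.46 (SE 0.24, edgeR adjusted p = 0.363). Ndufv2, the iron–sulfur partner of Ndufv1, measured 178 CPM in vehicle replicate 1 and 80.3 to 108 CPM in the other vehicle libraries, against 58.9 to 110.3 CPM after napabucasin. Its mean was 111 ± 39.0 against 87.2 ± 19.1 CPM (SD, n = 5 each), and the log2 fold change came to -0.35 (SE 0.24). That mean difference rested largely on vehicle replicate 1: without it the log2 fold change was -0.13.

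Ndufs1 (chr1:63143596-63176833), the largest subunit of the enzyme and a carrier of iron–sulfur clusters of the N module, behaved differently in napabucasin replicate 1. Vehicle replicates 1 to 5 measured 80.0, 55.5, 72.3, 69.6 and 97.8 CPM. Napabucasin replicates 1 to 5 measured 65.6, 66.2, 57.1, 62.7 and 70.4 CPM. All napabucasin values lay inside the vehicle range, and napabucasin replicate 1 was only 0.19 below the vehicle mean on the log2 scale. The log2 fold change was -0.22 (95% interval -0.59 to 0.14). At 8086 bases, Ndufs1 has the longest gene model of the 38 subunits. On the same scale in napabucasin replicate 1, Ndufa12 (1569 bases) was also at -0.19. Of 2 other long gene models, Ndufb5 (4995 bases) was at -1.28 and Ndufb2 (5628 bases) at 0.23. The part of gene length was not tested.

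In the Q module, Ndufs3, a core subunit that joins early in assembly, measured 71.9 to 126 CPM in vehicle and 64.3 to 106 CPM in napabucasin libraries, with a log2 fold change of -0.30 (SE 0.20). Ndufs7 holds the cluster that hands electrons to ubiquinone, and its gene is among those with AAGATGGC at the start codon. It measured 132, 59.9, 81.6, 76.5 and 85.3 CPM in vehicle replicates 1 to 5 and 60.0 to 95.9 CPM after napabucasin. The lowest vehicle value of Ndufs7 was below every napabucasin value, and its log2 fold change was -0.18 (SE 0.22). Ndufs8, which bridges the clusters between N and Q modules, measured 149, 56.3, 92.9, 70.4 and 77.8 CPM in vehicle and 53.2, 69.5, 109, 82.7 and 107 CPM in napabucasin replicates 1 to 5. Its log2 fold change was -0.08 (95% interval -0.66 to 0.50). For Ndufs8 the direction turned without vehicle replicate 1, where the log2 fold change was 0.17.

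Among the accessory subunits, Ndufb9 and Ndufb8 of the distal membrane arm had the smallest p. Ndufb9 (chr15:58933756-58939488), a protein that docks the acyl carrier protein onto the membrane arm, measured 70.2, 54.4, 73.8, 60.8 and 66.4 CPM in vehicle replicates 1 to 5. It measured 25.001, 47.6, 51.9, 54.6 and 54.7 CPM in napabucasin replicates 1 to 5. Napabucasin replicate 1 stood far below the rest, and only replicates 4 and 5 exceeded the lowest vehicle library, and then barely. The log2 fold change was -0.48 (95% interval -0.92 to -0.03, edgeR adjusted p = 0.315). Ndufb8 (chr19:44548572-44555440), a membrane-spanning subunit whose start region is shown above, measured 59.5, 39.9, 69.7, 65.1 and 84.6 CPM in vehicle replicates 1 to 5. It measured 18.6, 31.9, 46.9, 52.6 and 58.3 CPM in napabucasin replicates 1 to 5. Its log2 fold change of -0.61 was the furthest from 0 of the 46 genes (95% interval -1.23 to -0.00036, edgeR adjusted p = 0.329).

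Ndufb5, another single-span subunit of the distal arm, ranged over 54.97 to 84.0 CPM in vehicle and 29.2 to 62.9 CPM in napabucasin libraries, with a log2 fold change of -0.46 (SE 0.22). Ndufa2, a small N module subunit with a thioredoxin-like fold, measured 89.8, 66.8, 83.2, 60.6 and 67.9 CPM in vehicle replicates 1 to 5. It measured 31.2, 44.6, 72.0, 67.2 and 61.6 CPM in napabucasin replicates 1 to 5. Only napabucasin replicates 1 and 2 lay outside the vehicle range of Ndufa2, and its log2 fold change was -0.41 (SE 0.22). Ndufa8, the subunit of the enzyme with the highest level on the FPKM scale, measured 108 to 167 CPM in vehicle and 79.7 to 134 CPM in napabucasin libraries, a log2 fold change of -0.12 (95% interval -0.54 to 0.30).

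Ndufa12 and Ndufb2 were the 2 subunits with a positive fold change. Ndufa12 (chr10:94198720-94221443) is an accessory subunit of the peripheral arm that takes the place of Ndufaf2 late in assembly. It measured 30.9, 16.7, 22.2, 18.6 and 22.0 CPM in vehicle replicates 1 to 5. It measured 19.4, 21.0, 23.3, 24.3 and 42.4 CPM in napabucasin replicates 1 to 5. Napabucasin replicate 5 stood above all other libraries, and the other four lay within the vehicle range. The log2 fold change was 0.24 (95% interval -0.27 to 0.75), and it was -0.01 without napabucasin replicate 5. Ndufb2, a small subunit of the distal arm, averaged 7.67 ± 2.27 CPM under vehicle and 8.39 ± 0.933 CPM under napabucasin (SD, n = 5 each). Its log2 fold change was 0.13 (SE 0.22). It was the one subunit whose level in napabucasin replicate 1 exceeded the vehicle mean, by 0.23 on the log2 scale.

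**Figure D4:**
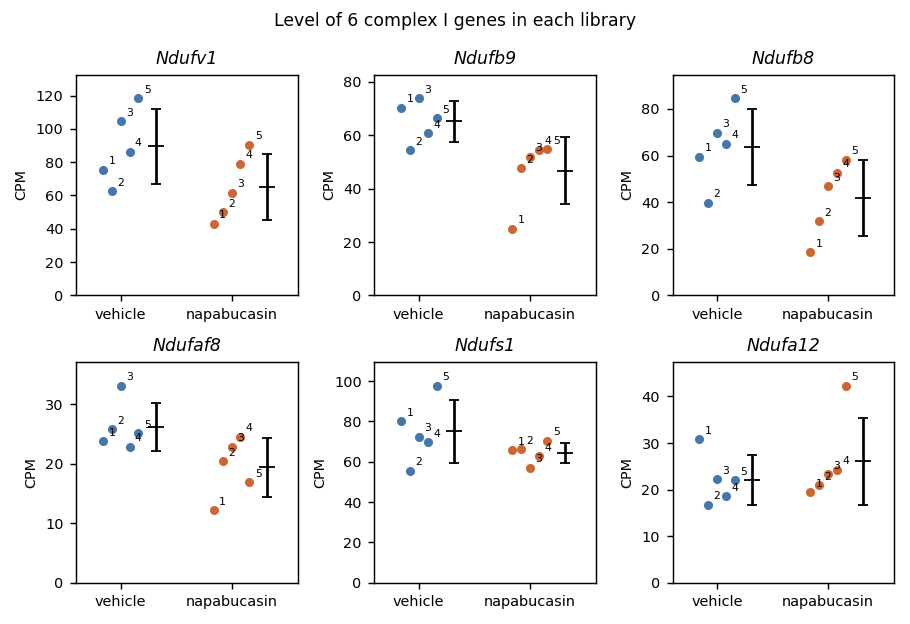
CPM of 6 genes in each library, with the replicate number beside each point and the mean and SD as black marks. Ndufv1, Ndufb9, Ndufb8 and Ndufaf8 lie lower in napabucasin livers with overlap, Ndufs1 keeps within the vehicle range, and Ndufa12 has 1 high library at 42.4 CPM.

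The balance between subunits was described by each gene's log2 CPM minus the mean over all 38 subunits of the same library, a measure in which a shift common to all subunits cancels. On this scale Ndufa12 was at -1.53 ± 0.071 in vehicle and -1.02 ± 0.31 in napabucasin livers (SD, n = 5 each). Its 5 napabucasin values were -0.74, -1.12, -1.35, -1.24 and -0.66, all above the vehicle range of -1.64 to -1.46. It was 1 of 38 subunits higher without overlap in this measure, against 1.32% of all genes set against the same subunit mean, a share from which nothing is read about the subunits as a group. The count lower without overlap was 0, against 0.0562%. Ndufb8 was at -0.02 ± 0.38 and -0.40 ± 0.27, which overlapped. This measure was chosen after the levels were seen and no test was run on it.

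Ndufa4 and Ndufa4l2 bear complex I names but are placed outside it: Ndufa4 is now counted as a subunit of cytochrome c oxidase, and Ndufa4l2 is its hypoxia-inducible relative. Ndufa4 had the highest FPKM of the 46 genes, 173. It measured 274, 211, 342, 259 and 272 CPM in vehicle replicates 1 to 5 and 104, 178, 227, 273 and 273 CPM in napabucasin replicates 1 to 5. Only napabucasin replicates 1 and 2 lay below the vehicle range, and the log2 fold change was -0.37 (SE 0.26, edgeR adjusted p = 0.488). Ndufa4l2 was scarce at 2.56 FPKM, with 1.44 to 5.13 CPM in vehicle and 1.81 to 3.95 CPM in napabucasin libraries. Its log2 fold change was -0.06 (95% interval -0.85 to 0.73), and its direction changed with the processing.

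The assembly factors gave a picture like that of the subunits. All 8 Ndufaf genes had log2 fold changes below 0, against 49.9% of all genes, with a median of -0.33 and a range of -0.43 to -0.01. By edgeR, 0 of 8 passed the threshold and 0 of 8 were at an unadjusted p under 0.05 (5.83% of all genes were lower at that p). DESeq2 also called 0 of 8, against 1.38% of the genes to which it gave an adjusted p. With the replicate block 1 of 8 was lower at an unadjusted p under 0.05, against 8.81% of all genes. The smallest adjusted p was 0.329. Their summed level was 143, 119, 134, 122 and 126 CPM in vehicle replicates 1 to 5 and 77.9, 92.8, 118, 122 and 111 CPM in napabucasin replicates 1 to 5. Napabucasin replicates 1 and 2 were again the lowest 2 libraries, so leaving them out was bound to raise these values. Without them the median was -0.10, with 5 of 8 genes lower, against 53.6% of all genes.

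Ndufaf8 (chr11:120098928-120100705), the partner that stabilises Ndufaf5, came nearest to the threshold. It measured 23.8, 25.9, 33.2, 22.9 and 25.2 CPM in vehicle replicates 1 to 5. It measured 12.2, 20.5, 22.9, 24.6 and 16.9 CPM in napabucasin replicates 1 to 5. Napabucasin replicates 1, 2 and 5 lay below the vehicle range and replicates 3 and 4 at its lower end. The log2 fold change was -0.43 (SE 0.20, edgeR unadjusted p = 0.0501, adjusted p = 0.329). Ndufaf5, which hydroxylates an arginine of Ndufs7, was at 5.43 ± 0.828 and 4.83 ± 0.998 CPM (SD, n = 5 each).

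Ndufaf3 and Ndufaf4 act together on the early Q module. Ndufaf3 measured 18.5, 11.4, 15.7, 11.2 and 11.99 CPM in vehicle and 7.61, 8.98, 11.3, 14.9 and 9.99 CPM in napabucasin replicates 1 to 5, a log2 fold change of -0.38 (SE 0.22). Ndufaf4 measured 26.2, 42.1, 22.7, 29.9 and 26.9 CPM in vehicle and 22.6, 22.1, 25.4, 23.5 and 23.9 CPM in napabucasin replicates 1 to 5, a log2 fold change of -0.33 (SE 0.18). Ndufaf4 was unlike most of the genes: its highest library was vehicle replicate 2, and the napabucasin libraries spanned a narrow range. Without vehicle replicate 2 its log2 fold change was -0.16. Ndufaf7, a methyltransferase of the early Q module, had means of 15.5 ± 2.99 and 12.2 ± 2.26 CPM (SD, n = 5 each) and a log2 fold change of -0.34.

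Ndufaf1 belongs to the assembly complex that builds the ND2 part of the membrane arm. It measured 22.7, 10.6, 20.2, 17.3 and 22.3 CPM in vehicle and 7.98, 9.47, 19.1, 17.4 and 20.0 CPM in napabucasin replicates 1 to 5. The 2 low napabucasin libraries were accompanied by a low vehicle replicate 2, and the log2 fold change was -0.33 (SE 0.29). Ndufaf6, needed for the ND1 part of the membrane arm, had a log2 fold change of -0.12. Ndufaf2, the placeholder for Ndufa12, had means of 9.80 ± 2.58 and 9.72 ± 2.54 CPM (SD, n = 5 each) and a log2 fold change of -0.01 (95% interval -0.53 to 0.52).

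Assembly factors under other names were read from a list of 13, of which 12 were matched and tested. Of these 11 were lower, with a median log2 fold change of -0.31, 2 were lower at an unadjusted p under 0.05 against 5.83% of all genes, and 0 passed the threshold. Nubpl, which delivers iron–sulfur clusters to complex I, measured 3.51, 3.77, 7.82, 7.19 and 9.48 CPM in vehicle replicates 1 to 5. It measured 2.24, 1.95, 3.15, 6.04 and 3.22 CPM in napabucasin replicates 1 to 5. Its napabucasin replicates 1, 2, 3 and 5 lay below the vehicle range, it was lower in all 5 pairs, and its log2 fold change, -0.93 (SE 0.36, edgeR adjusted p = 0.285), was the furthest from 0 among the complex I genes on nuclear DNA. Tmem70, which serves both complex I and ATP synthase, was at 38.0 ± 2.38 and 29.5 ± 6.21 CPM (SD, n = 5 each), and its log2 fold change was -0.37 (edgeR adjusted p = 0.322). Tmem126b, of the same assembly complex as Ndufaf1, had a log2 fold change of -0.47, and Lyrm2, a factor of the N module, had one of -0.49. Dmac2 was the exception, at 0.46. Without napabucasin replicate 1 or replicate 2, or without vehicle replicate 3, 0 of the 12 were at an unadjusted p under 0.05. That count was 1 without vehicle replicate 4 or 5, and 5 without napabucasin replicate 4. Under the same omissions the share of all genes lower at that p was 4.0%, 3.17%, 3.59%, 3.99%, 3.15% and 8.0%, in the order named.

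The mitochondrially encoded core subunits did not share the direction of the nuclear ones. Of the 7 mt-Nd genes 6 had log2 fold changes above 0, with a median of 0.36 over the 7, and by edgeR and DESeq2 0 passed the threshold and 0 were at an unadjusted p under 0.05 by edgeR. Their summed level was 74630, 26010, 29080, 32041 and 28365 CPM in vehicle replicates 1 to 5. It was 75851, 57905, 38534, 29888 and 41594 CPM in napabucasin replicates 1 to 5. Vehicle replicate 1 and napabucasin replicate 1 were nearly equal and the highest 2 libraries, although for nuclear subunits they were the highest and the lowest. Mitochondrial genes together took 19.0% of counts in vehicle replicate 1 and 7.03% to 8.78% in the other vehicle libraries, and 9.03% to 19.9% in napabucasin libraries. Without napabucasin replicates 1 and 2, the highest of their group on the summed level, the median of the mt-Nd genes was -0.06.

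Among single mt-Nd genes, mt-Nd4, which forms a proton channel of the distal arm, averaged 8636 ± 3563 CPM under vehicle and 11777 ± 4867 CPM under napabucasin (SD, n = 5 each), and its log2 fold change was 0.45. The proximal arm channel subunit mt-Nd2 was at 9495 ± 4935 and 12769 ± 4397 CPM, a log2 fold change of 0.43. The scarce mt-Nd3 averaged 24.1 ± 10.01 and 32.8 ± 8.53 CPM, which gave a log2 fold change of 0.45. Spread within groups was larger than these differences of means for mt-Nd4 and mt-Nd2. The mt-Nd4l reading rested on 1 library: it was 546 CPM in vehicle replicate 1, 6.38 to 17.2 CPM in the other vehicle libraries and 12.9 to 97.0 CPM after napabucasin. mt-Nd4l overlaps mt-Nd4 on the mitochondrial genome, so its count depends on how overlapping reads were assigned. Its log2 fold change was -1.36 (SE 1.13), and it was 1.95 without vehicle replicate 1.

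Regulators of mitochondrial genes, taken as a list, had a median log2 fold change nearer to 0 than that of the subunits, though Tfam did not. Of 8 regulators 6 had log2 fold changes below 0, with a median of -0.08. Tfam, which packages and transcribes mitochondrial DNA, measured 39.3, 45.7, 41.6, 46.6 and 57.9 CPM in vehicle replicates 1 to 5. It measured 29.3, 36.7, 36.3, 41.7 and 38.7 CPM in napabucasin replicates 1 to 5. Napabucasin replicates 1, 2, 3 and 5 lay below the vehicle range, Tfam was lower in all 5 pairs, and the log2 fold change was -0.34 (SE 0.16, edgeR adjusted p = 0.335). The factors whose letters were sought in the start regions were nearer to 0, with log2 fold changes of -0.03 for Yy1, -0.06 for Nrf1, -0.16 for Gabpa and 0.11 for Esrra. The coactivators Ppargc1a and Ppargc1b were at 0.07 and -0.26.

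Other mitochondrial and ribosomal gene lists of the same fit had the same direction, and differences between lists were not tested. The 37 nuclear genes of complexes II to V were all below 0 with a median of -0.43, and 9 were lower at an unadjusted p under 0.05, against 5.83% of all genes. Of 77 mitochondrial ribosomal protein genes 67 were lower, with a median of -0.20, 11 at that p, and 5 with no overlap between the groups (0.934% of all genes). Of 83 cytoplasmic ribosomal protein genes 74 were lower, with a median of -0.25 and 2 at that p, a share below that of all genes. On the mean centred log2 CPM of a list, complex I subunits ran from -0.798 in napabucasin replicate 1 to 0.590 in vehicle replicate 1. Complexes II to V ran from -0.997 to 0.520 in the same libraries. Cytoplasmic ribosomal proteins, short genes as well, had a median length of 1739 bases and their lowest value, -0.618, in napabucasin replicate 1 too.

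**Figure D5:**
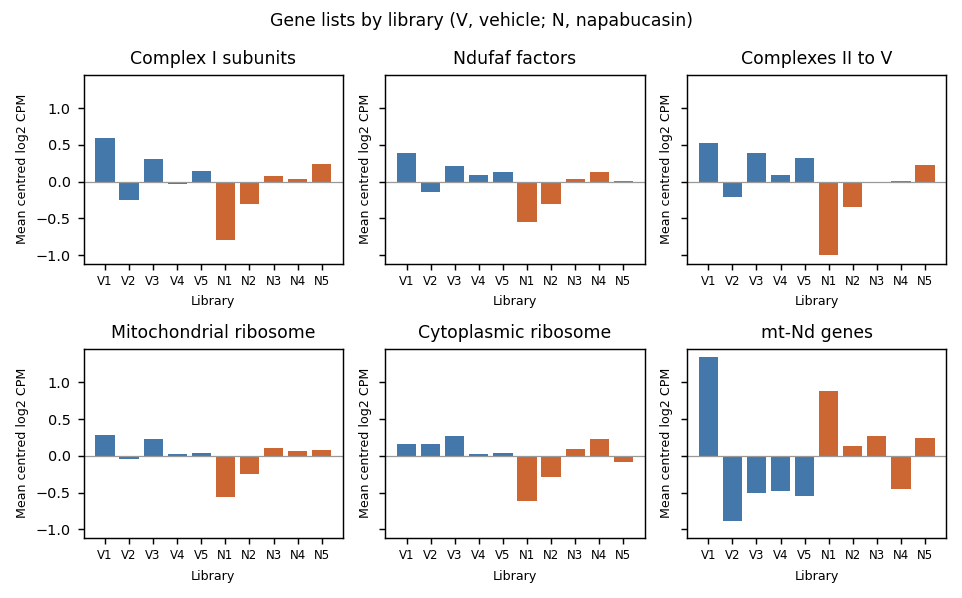
Mean centred log2 CPM of 6 gene lists in each library (V, vehicle; N, napabucasin). Napabucasin replicate 1 is the lowest library for the 5 nuclear lists, at -0.798 for complex I subunits, while the mt-Nd genes are high in it at 0.881.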

How the data were processed

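Polyadenylated RNA of whole mouse liver was sequenced in 10 libraries, 5 vehicle and 5 napabucasin. The authors deposited whole-number counts per gene. HISAT2 2.0.5, featureCounts 1.5.0-p3 and GRCm38 (mm10) are named in the submitters' processing notes. The strand setting is not given in the sources used here, and neither is the annotation release, so reads of overlapping genes could not be split. The deposited FPKM values follow from the authors' counts, the gene lengths and median-of-ratios size factors, as checked on the values.

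The main test was the robust quasi-likelihood F test of edgeR 4.0.16 in R 4.3.3, with TMM scaling and treatment as its single term. The filterByExpr step kept 14244 genes, all 46 members among them. Adjustment was by Benjamini-Hochberg over every gene tested, at a threshold of 0.05. Standard errors were derived from the F statistic, and p-values reflect the spread among these libraries. The common biological coefficient of variation was 0.325. On simulated data of 14052 genes edgeR recovered 1 of 48 genes altered 1.5-fold, 15 of 50 altered 2-fold and 45 of 47 altered 4-fold, and it also called 6 unaltered genes. Shifts of the size of most members are thus seldom called at this depth and spread.

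Members, modules and lists were chosen with earlier results of these data known. Genes named are the 7 nuclear core subunits, Ndufa4 and Ndufa4l2, the 6 lower and up to 3 higher subunits of smallest p, the 2 subunits highest and the 2 lowest in mean FPKM, all Ndufaf genes, and the 4 members of smallest p of each other list. One gene that this rule names is not reported here. Ndufb4, Ndufa5, the genes with a start-region match, Dmac2, Yy1, Nrf1 and Ppargc1a were named after their values were seen. Motifs were chosen after several spellings had been looked at. Counts over pairs were added after the values were seen.

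Alternatives were RLE or no size factors, no count filter, protein-coding genes only, DESeq2 1.42.0, voom with quality weights (limma 3.58.1), limma on log2(FPKM + 1) where the mean FPKM reached 0.5, the same with a pseudocount of 0.1, the same unfiltered, a replicate block, each library left out, and napabucasin replicates 1 and 2 left out together. What a shared replicate number stands for is not in the labels. Same-numbered libraries deviated weakly together from their group means (r of 0.154, 0.227, 0.208, 0.270 and 0.278). On the data alone the numbers were read as pairs, and these values do not establish a pairing. Only 6 of 10 libraries correlated best with their own number, and neither library numbered 1 did.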

Additional observations from a re-analysis of the deposited data

Results flagged for a closer look

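Of 118 sets of 5 libraries examined (46 genes and 13 list or share measures in each group), 8 had a library far from the other four, and chance alone flags about 1 in 20 sets. The level of Ndufb9 in napabucasin replicate 1 was 25.001 CPM against 47.6 to 54.7 CPM in the others of its group. Vehicle replicate 1 was high for Ndufv2, at 178 CPM against 80.3 to 108 CPM, for Ndufa5 of the Q module, at 108 CPM against 36.8 to 56.1 CPM, and for Ndufb4 of the distal membrane arm, at 89.2 CPM against 38.8 to 52.3 CPM. Ndufa12 was high in napabucasin replicate 5, at 42.4 CPM against 19.4 to 24.3 CPM. Ndufaf8 was high in vehicle replicate 3, at 33.2 CPM against 22.9 to 25.9 CPM. Vehicle replicate 1 was also high for the mean centred log2 CPM of the mt-Nd genes, at 1.34 against -0.888 to -0.483. The same library gave 19.0% of its counts to mitochondrial genes, against 7.03% to 8.78% in the other vehicle libraries. Of the 8 flags 5 fell on vehicle replicate 1. Its part in the group differences of other genes was not tested beyond leaving it out.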

How the results depend on the processing

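No member passed the threshold under any of the 21 other settings. Over all genes, 0 passed in the reported fit, 1 with library size only, 19 without the count filter, 205 by DESeq2, 156 by limma-voom with quality weights, 1 on log2(FPKM + 0.1), and 0 to 18 with 1 library left out (18 without vehicle replicate 1, 3 without napabucasin replicate 5). The median log2 fold change of the subunits was -0.20 with library size only, where the median of all genes was 0.07, -0.12 by limma-voom with 26 of 38 lower, and -0.41 to -0.17 with 1 library left out, with 28 to 37 subunits lower. The subunits lower at an unadjusted p under 0.05 numbered 0 with library size only, 5 without the count filter, 6 with the replicate block, 0 without napabucasin replicates 1 and 2, and 0 to 7 with 1 library left out. For the Ndufaf genes that count was 1 with RLE size factors, without the count filter, with protein-coding genes only, in each of the 3 FPKM fits and with the replicate block, and 0 to 2 with 1 library left out. Their median ran from -0.38 to -0.22 with 1 library left out. Without napabucasin replicates 1 and 2, 5 of 8 were lower, against 53.6% of all genes. For the other assembly factors the count at that p was 5 by limma-voom, 4 on log2(FPKM + 1), 1 with library size only and 0 to 5 with 1 library left out. Over all genes, 830 were lower at that p in the reported fit, 361 with library size only and 859 with RLE size factors. The number was 1412 without the count filter, 783 with protein-coding genes only, 1564 by limma-voom and 340 without napabucasin replicates 1 and 2. It was 818 on log2(FPKM + 1), 809 on log2(FPKM + 0.1), 1012 on log2(FPKM + 1) unfiltered and 457 to 1198 with 1 library left out. Among the complex I lists the replicate block changed no other call. Over all genes it moved those lower at that p from 830 to 1255 and those higher from 1331 to 1675, and 0 passed the threshold. The cause of these shifts was not tested.

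Among 36 named genes, 715 of 756 values kept their direction and 41, in 11 genes, turned. Without napabucasin replicates 1 and 2 the log2 fold changes that turned were 0.0097 for Ndufs7, 0.16 for Ndufs8, 0.089 for Ndufa4l2, 0.046 for Ndufa8, 0.019 for Ndufaf1, 0.0099 for Ndufaf6, 0.20 for Ndufaf2, -0.027 for mt-Nd4 and -0.25 for Esrra, and the mt-Nd median was -0.057. With library size only they were 0.044 for Ndufs8, 0.080 for Ndufa4l2 and 0.090 for Ndufaf2. By limma-voom they were 0.19 for Ndufs8, 0.14 for Ndufa4l2, 0.060 for Ndufa8, 0.051 for Ndufaf2 and 1.37 for mt-Nd4l. On log2(FPKM + 1), filtered or not, they were 0.0024 for Ndufa4l2 and 0.49 for mt-Nd4l, and on log2(FPKM + 0.1) they were 0.030 and 0.50. With the replicate block they were 0.048 for Ndufa4l2 and 0.67 for mt-Nd4l. With 1 library left out the ranges that crossed 0 were -0.28 to 0.0063 for Ndufs7, -0.20 to 0.17 for Ndufs8, -0.23 to 0.22 for Ndufa4l2, -0.0055 to 0.37 for Ndufa12, -0.21 to 0.016 for Ndufaf6, -0.13 to 0.11 for Ndufaf2, -0.093 to 0.29 for Esrra and -1.83 to 1.95 for mt-Nd4l.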
